A study of Homo sapiens with 16 samples.

Results

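Caco-2 cells, a human colorectal adenocarcinoma line used as a model of the gut wall, were compared with and without free fatty acids (FFA) while they were grown on their own, in mono-culture, on a microfluidic chip. The comparison covered 2 FFA libraries and 2 control libraries. A gene entered it when its mean over these 4 libraries was at least 10 CPM, a gene's reads scaled to the same total in every library. This kept 5184 of the 60623 genes listed, and 15489 genes had a read in at least 1 of the 4 libraries. At the edge of this rule SENP7 stood just inside, at a mean of 10.0002 CPM, and CTDNEP1 just outside, at 9.99987 CPM. Since the mean covers both groups, a gene low in 1 group could pass through the other.

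The whole series held 16 libraries of polyadenylated RNA, 2 in each of 8 groups set by line (Caco-2 or the liver tumour line HepG2), culture (mono-culture or co-culture on the same chip) and treatment. The treated cells received a total of 1 mM palmitic acid and oleic acid in a ratio of 1 to 2, in serum-free medium with fatty-acid-free albumin. The fatty acid stocks were made in dimethyl sulfoxide, and whether the control medium held this solvent was not given in the sources used here. The labels place the sampling 1 day after the start of treatment, while the study also describes a longer treatment on the chip, and the sample titles begin with LTC, letters that the labels do not explain. The time of treatment is therefore not certain. All groups were unmodified cells of an established line, so a group stands for a culture of that line and not for a donor. The study describes its mRNA-seq as made in independent experiments, but nothing ties a replicate number to one of them. The p values below therefore measure the spread between these libraries, which may be partly technical.

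The control libraries held 365396 and 850986 reads and the FFA libraries 404378 and 622280 reads. Between 10496 and 12439 genes were detected per library. The tested genes took between 97.1% and 97.5% of the reads and were mostly protein-coding (4714), with 187 long non-coding RNAs and 173 processed pseudogenes. Their median level was 32.1 CPM, and 1 read stood for between 1.18 and 2.74 CPM. The floor of detection, set at 3 reads, lay between 3.53 and 8.21 CPM. This floor covers counting error only, and 282 of the tested genes fell under it in at least 1 library. Replicates differed by a median of 0.34 (control) and 0.32 (FFA) on the log2 scale per gene, more than counting alone gives.

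The defining markers of the line were partly present. EPCAM, the epithelial adhesion protein, lay between 801 and 924 CPM in the 4 libraries, and KRT8, KRT18, VIL1, CDH17, TFF3 and TSPAN8 also passed the filter. The other 9 of the 16 intestinal markers did not, and CDX1 and LGALS4 had no read in any of the 4 libraries. Liver genes were read too, with 13 of 24 hepatocyte markers above the filter and ALB between 356 and 561 CPM, while CYP2E1, ITIH3 and FETUB were at 0. Caco-2 cells are known to express several liver genes. The summed hepatocyte markers were 8380 and 7160 CPM in the control libraries and 8336 and 7720 CPM in the FFA libraries, so the groups overlapped. None of the 8 fibroblast markers passed the filter, with sums of at most 12.8 CPM and COL1A2, DCN, THY1 and FAP at 0. Of the 8 blood and endothelial markers LYZ and HBA1 passed, the sums were 21.9 and 32.9 CPM in the controls and 22.3 and 46.6 CPM with FFA, and PTPRC, CD3E, HBB and PECAM1 were at 0.

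Mitochondria carry a small circular genome that codes for a few subunits of the respiratory chain and of ATP synthase, for the ribosomal RNAs of the organelle and for its transfer RNAs. All other respiratory subunits come from the nucleus. Transcription starts in a non-coding control region and gives long precursors that are cut at the transfer RNAs, so neighbouring genes begin on a shared transcript and differ later by processing and decay. Fatty acids that enter an enterocyte are activated, then burned in mitochondria, stored in lipid droplets or packed into lipoproteins, and cholesterol synthesis is set by a sterol-sensing switch in the endoplasmic reticulum.

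The mitochondrial genome (chrM, 16569 bases in GRCh38) is shown here because it carries most of the genes that passed the test. The stretch chrM:427-576, plus strand, ends right before MT-TF, the first gene read from this strand. The second stretch, chrM:10748-10777, plus strand, spans the junction of MT-ND4L (chrM:10470-10766) and MT-ND4 (chrM:10760-12137), which share the 7 bases in capitals.
before MT-TF: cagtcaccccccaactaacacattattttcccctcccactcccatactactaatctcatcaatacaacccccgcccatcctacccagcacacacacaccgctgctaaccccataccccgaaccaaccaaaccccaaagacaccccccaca
MT-ND4L and MT-ND4 junction: aaacctactccaATGCTAAaactaatcgtc

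The FFA libraries held more mitochondrial transcripts. Of the 5184 genes, 10 rose and none fell at an adjusted p under 0.05 in limma with Benjamini-Hochberg adjustment, which is 0.193% of the genes tested for a rise and 0% for a fall. Of these 10, 9 lie in the mitochondrial genome and 1, DKK1, in the nucleus. On the reads recovered from the values edgeR called 7 of them, 6 mitochondrial genes and DKK1, and DESeq2 called 5, MT-ND4, MT-CYB, MT-ND2, MT-CO3 and DKK1. With 1 prior variance for all genes in limma, in place of a trend with the level, none passed and 328 genes had an unadjusted p under 0.05. At an unadjusted p under 0.05 there were 379 genes, 279 higher (5.38%) and 100 lower (1.93%). Both FFA libraries were above both controls in 1164 genes (22.5%) and below both in 646 genes (12.5%), and the groups overlapped in the other 3374. The change was above 0 in 3006 genes and below 0 in 2178. The median change over all genes was 0.07 on the log2(CPM + 1) scale, on which all changes below are given. With 2 libraries a group, an exact permutation test of a single gene could not go below p = 0.333. The calls by limma, edgeR and DESeq2 above therefore borrow the spread from the fit across genes. In RNA from a whole culture, a change in the number of cells of a kind and a change in RNA per cell cannot be told apart.

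**Figure D1:**
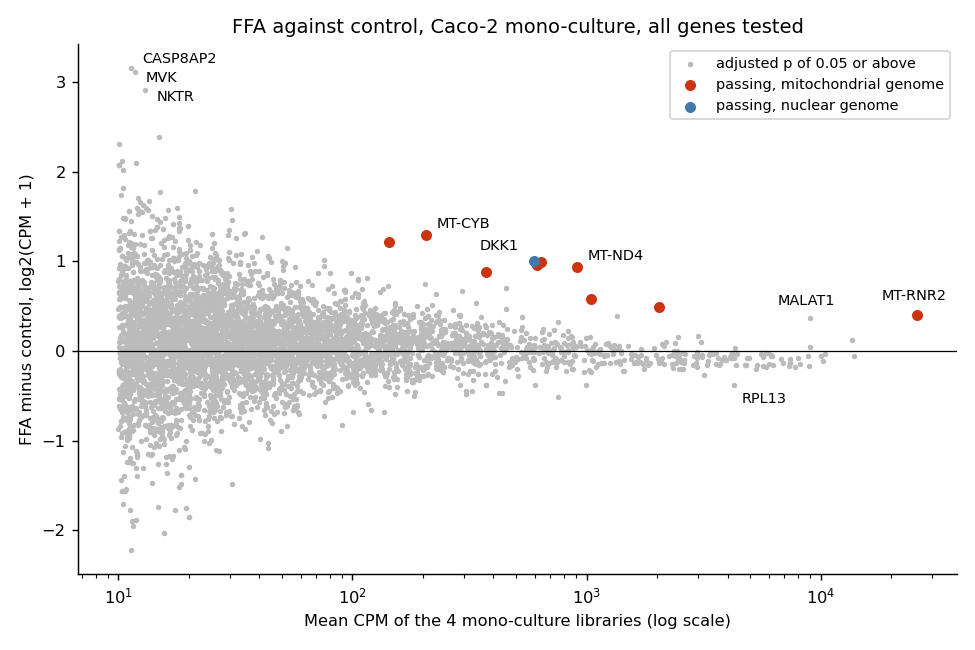
Change with FFA in Caco-2 mono-culture, as FFA minus control in log2(CPM + 1), against the mean CPM of the 4 libraries on a log scale, with 1 point per gene tested. The 10 genes that passed, 9 of them mitochondrial (red) and DKK1 (blue), all lie above 0, and larger changes at low levels did not pass.

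Mitochondrial genes held 2.76% and 2.73% of the reads of the control libraries and 3.97% and 3.66% of those of the FFA libraries. The groups did not overlap. The protein genes alone held 0.376% and 0.312% without FFA and 0.701% and 0.544% with FFA, and again the groups were apart. Of the 13 protein genes of this genome 12 passed the filter on low values. In all 12 both FFA libraries were above both controls, beside 22.5% of all genes. Of the 12, 7 passed the test, and the median change was 0.95 against 0.07 over all genes. The one below the filter was MT-ATP8, an ATP synthase subunit, with 2 and 6 reads in the controls and 4 and 6 reads with FFA. The methods of the study describe discarding mitochondrial reads for mRNA-seq, yet all 16 libraries hold them, and whether some were removed here is not known.

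MT-ND4, a complex I subunit, was at 635 and 608 CPM in the control libraries and at 1274 and 1114 CPM in the FFA libraries. It rose 1.92-fold, by 0.94 ± 0.12 (SE) on the log2 scale, with an adjusted p of 4.31e-05. MT-ND2, of the same complex, was at 484 and 369 CPM without FFA and at 984 and 717 CPM with FFA, a rise of 0.99 ± 0.15 (SE, adjusted p = 0.000332). For both genes the lower FFA library was above the higher control by more than the replicates differed in the control group. MT-ND5 was at 90.3 and 76.4 CPM and then at 265 and 143 CPM, a rise of 1.22 ± 0.24 (SE, adjusted p = 0.010). Here FFA replicate 1 was far above FFA replicate 2, and both were above the controls.

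The other complex I genes of this genome had values in the same direction that did not pass. MT-ND1 was at 416 and 277 CPM in the controls and 638 and 479 CPM with FFA (log2 change 0.70, adjusted p = 0.123). MT-ND3 was at 46.5 and 21.1 CPM and then at 74.2 and 67.5 CPM, a log2 change of 1.15 with an adjusted p of 0.289. MT-ND4L, with 52.0 and 37.6 CPM against 79.1 and 69.1 CPM, had a log2 change of 0.73 and an adjusted p of 0.548. Its last bases are the first of MT-ND4, as the capitals above show, so a long read over the junction can belong to both. MT-ND6, the one protein gene on the other strand (chrM:14149-14673), was at 21.9 and 23.5 CPM without FFA and at 79.1 and 40.2 CPM with FFA (log2 change 1.28, adjusted p = 0.224). Whether strand was used in counting was not given in the sources used here, so its reads cannot be told apart from antisense RNA of that stretch.

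MT-CYB, the cytochrome b of complex III, had the largest change among the genes that passed. It was at 126 and 112 CPM in the controls and at 309 and 276 CPM with FFA, 2.46-fold higher (log2 change 1.29 ± 0.19, SE, adjusted p = 0.000305). The replicates lay close together in both groups. All 3 subunits of complex IV, cytochrome c oxidase, that this genome codes for rose. MT-CO3 went from 260.0 and 264 CPM to 509 and 458 CPM (0.88 ± 0.14, SE, adjusted p = 0.000875). MT-CO2 went from 487 and 338 CPM to 1016 and 617 CPM (0.96 ± 0.19, SE, adjusted p = 0.010), and MT-CO1 from 884 and 784 CPM to 1392 and 1109 CPM (0.58 ± 0.12, SE, adjusted p = 0.019). In MT-CO2 the replicates were wide apart in both groups, and its lower FFA value was still above the higher control. MT-ATP6, an ATP synthase subunit that shares 46 bases with MT-ATP8, was at 249 and 206 CPM and then at 383 and 339 CPM, a log2 change of 0.67 that did not pass (adjusted p = 0.0938).

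Both ribosomal RNAs of the mitochondrion rose, by less than most protein genes. MT-RNR2, the large one (chrM:1671-3229), was at 22118 and 22435 CPM in the controls and at 28979.6 and 30056 CPM with FFA, 1.33-fold higher (0.41 ± 0.06, SE, adjusted p = 0.000285). Its replicates differed little beside the step between the groups. MT-RNR1, the small one (chrM:648-1601), was at 1678 and 1709 CPM and then at 2572 and 2189 CPM (0.49 ± 0.10, SE, adjusted p = 0.019). The median of the pair was 0.45. The calls of both, and of MT-CO1, held only in limma on CPM: in edgeR on the recovered reads the changes were 0.32, 0.40 and 0.50 with adjusted p of 0.696 for MT-RNR2, 0.587 for MT-RNR1 and 0.367 for MT-CO1. The cause was not tested.

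**Figure D2:**
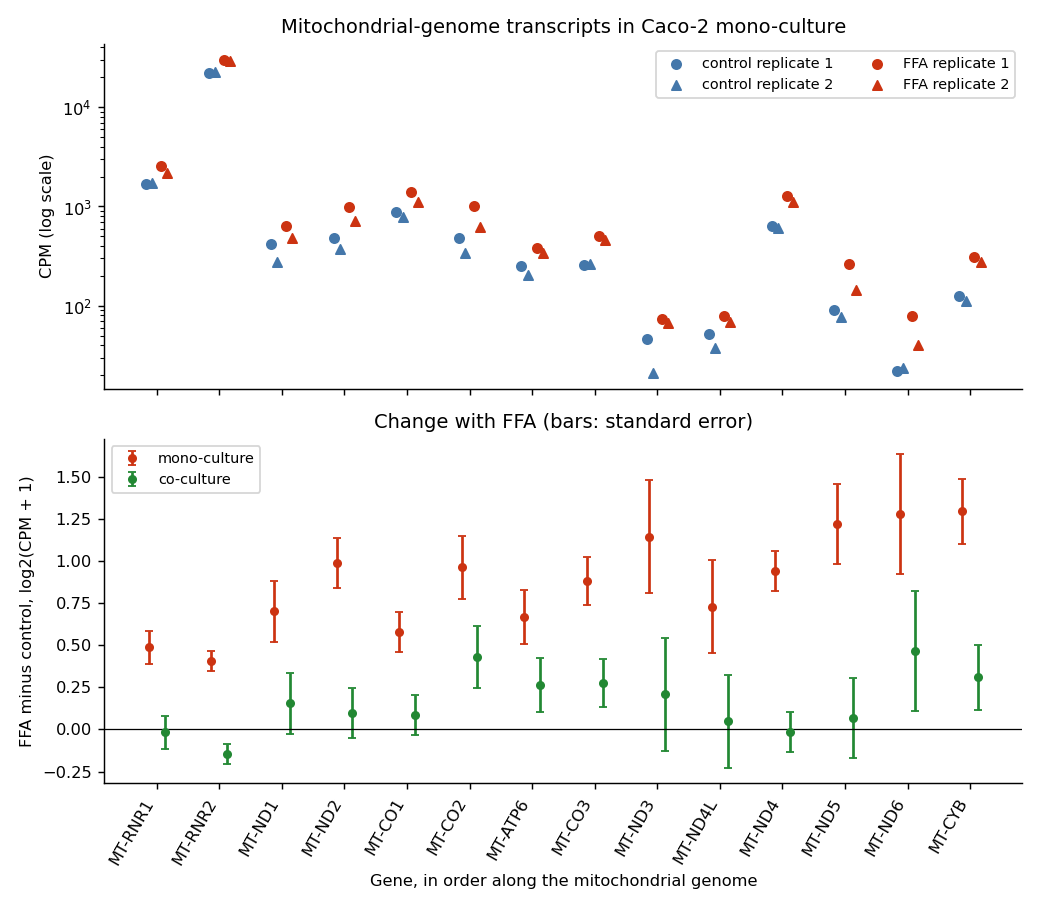
Upper panel, the level of each of the 14 mitochondrial genes tested in each mono-culture library, in CPM on a log scale, in the order of the genes along the genome; lower panel, the change with FFA in log2(CPM + 1) with its standard error in mono-culture (red) and co-culture (green). In mono-culture all 14 changes lie above 0 with no overlap between FFA and control libraries, while in co-culture 11 lie above 0 and none passed.

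In all 14 mitochondrial genes FFA replicate 1 was above FFA replicate 2, and in 10 of them control replicate 1 was above control replicate 2. The size of each change therefore rests partly on FFA replicate 1. Without it 3 genes passed in all, MT-CYB, MT-ND4 and MT-RNR2. Without FFA replicate 2 there were 27, 16 higher and 11 lower. Without control replicate 2 the calls of MT-CO2 (adjusted p = 0.293), MT-ND5 (0.133), MT-CO1 (0.181) and MT-RNR1 (0.0741) were lost. Over the fits that each left out 1 library, the change of MT-CO2 ranged from 0.60 to 1.32 and that of MT-ND5 from 0.78 to 1.66. The nuclear genome holds old copies of mitochondrial genes to which such reads can be assigned. Of these MTCO1P12 had 4 and 16 reads in the controls and 5 and 7 with FFA, and MTND2P28 had 4 and 13 reads and then 12 and 11, so few reads were assigned to them in any library.

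No nuclear gene of the respiratory chain passed. All 70 listed were tested, and 10 were above the controls in both FFA libraries and 11 below, beside 22.5% and 12.5% of all genes. The median change was 0.03, with a range from -0.36 to 0.34. Their summed level was 31998 and 32827 CPM in the controls and 33038 and 32121 CPM with FFA, and the groups overlapped.

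Another kind of ribosomal RNA stood higher in the FFA libraries without passing. The 5.8S ribosomal RNA copies, part of the cytosolic ribosome, are not polyadenylated as a rule. The 3 copies tested have identical sequences of 153 bases, so their reads cannot be told apart. RNA5-8SN2 was at 65.7 and 69.3 CPM in the controls and at 168 and 91.6 CPM with FFA (log2 change 0.87, adjusted p = 0.123). All 3 copies had both FFA libraries above both controls, beside 22.5% of all genes, with a median change of 0.73. As their sequences are identical, they do not count as 3 separate results. All 3 were highest in FFA replicate 1, as the mitochondrial genes were. The part of such RNA in the mitochondrial result was not tested. MALAT1, a nuclear long non-coding RNA, was at 7028 and 8709 CPM and then at 9763 and 10518 CPM, a log2 change of 0.37 with an adjusted p of 0.060. NEAT1, the scaffold RNA of paraspeckles, was at 43.8 and 70.5 CPM without FFA and at 116 and 90.0 CPM with FFA (log2 change 0.87, adjusted p = 0.334).

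DKK1 was the one nuclear gene that rose. It codes for a secreted inhibitor of Wnt signalling that binds the Wnt co-receptors and is itself a known target of that pathway. It lies on chromosome 10 (chr10:52314281-52318042, plus strand, GRCh38) and had 176 and 270 reads in the control libraries and 357 and 434 with FFA. In CPM it was at 482 and 317 without FFA and at 883 and 697 with FFA, so that even the lower FFA library was above the higher control. The change was 1.00 ± 0.17 (SE), 1.98-fold, with an adjusted p of 0.00219. The call depended on single libraries. It was lost without control replicate 2 (adjusted p = 0.133) and without FFA replicate 1 (adjusted p = 0.253), and the change ranged from 0.70 to 1.30 over the fits that each left out 1 library.

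The DKK1 promoter is printed since this was the only nuclear gene to pass. RefSeq (GRCh38.p14) gives chr10:52314031-52314330, plus strand, for the 250 bases before the start and the 50 after it. The capitals mark the letters CTTTGAA, the core of sites for the TCF and LEF factors of the Wnt pathway, 95 bases before the start, and TATAAA, the letters of a promoter box that places the start, 30 bases before it.
DKK1 promoter: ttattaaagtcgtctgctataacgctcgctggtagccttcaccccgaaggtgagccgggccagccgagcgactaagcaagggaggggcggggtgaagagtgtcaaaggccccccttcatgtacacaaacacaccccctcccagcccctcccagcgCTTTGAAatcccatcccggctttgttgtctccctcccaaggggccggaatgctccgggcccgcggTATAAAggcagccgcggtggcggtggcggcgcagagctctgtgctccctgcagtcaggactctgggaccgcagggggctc
Both strands were searched, and a gene was counted when any of its promoters held the letters. CTTTGAA was found in 4.43% of all 35116 promoters of this length and in 3.84% of the 3799 tested genes with a promoter, and TATAAA in 11.5% and 8.32%. These matches describe the letters only.

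The genes of cholesterol synthesis and uptake had the highest median of the lipid lists, and none passed. Of 28 listed genes 22 were tested. Their median change was 0.30 against 0.07 over all genes, and 20 lay above 0, beside 3006 of all 5184 genes. In 10 both FFA libraries were above both controls, beside 22.5% of all genes, and in 2 below, beside 12.5%. At an unadjusted p under 0.05 there were 8, all higher, beside 5.38% of all genes. The list was chosen with earlier results of these data known. MVK, mevalonate kinase, had 0 and 4 reads in the controls and 12 and 8 with FFA (log2 change 3.11, adjusted p = 0.141), and both controls were at or near the floor. Its mean was 2.35 CPM in the controls and 21.3 CPM with FFA. It thus passed the filter only through the FFA libraries, and it is included in the counts above. INSIG2, which holds the sterol sensor in the endoplasmic reticulum, was at 16.4 and 22.3 CPM and then at 42.0 and 57.9 CPM (log2 change 1.32, adjusted p = 0.155). Both genes were apart between the groups at low counts.

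Enzymes with more reads had smaller changes. IDI1, which isomerises isopentenyl diphosphate, was at 320.2 and 233 CPM without FFA and at 440.2 and 355 CPM with FFA (log2 change 0.53, adjusted p = 0.384). FDPS, which makes farnesyl diphosphate, was at 399.6 and 358 CPM and then at 589 and 469 CPM (log2 change 0.47, adjusted p = 0.416). MSMO1, a sterol demethylase, was at 498 and 422 CPM and then at 581 and 614 CPM (log2 change 0.38, adjusted p = 0.675). In all 3 both FFA libraries were above both controls.

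DHCR7, the last enzyme of the pathway, was at 63.0 and 41.1 CPM and then at 79.1 and 75.5 CPM (log2 change 0.59, adjusted p = 0.678). HMGCS1, which feeds the pathway, was at 151 and 114 CPM in the controls and at 185 and 164 CPM with FFA (log2 change 0.41, adjusted p = 0.730). In both genes the FFA libraries were above the controls. MVD, which makes isopentenyl diphosphate, was at 71.1 and 65.8 CPM and then at 44.5 and 56.2 CPM (log2 change -0.44, adjusted p = 0.851). INSIG1, the sister of INSIG2, was at 164 and 110.5 CPM without FFA and at 131 and 177 CPM with FFA, and the groups overlapped (log2 change 0.18, adjusted p = 0.958).

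The FDPS promoter (RefSeq, GRCh38.p14, chr1:155308616-155308915, plus strand) is given as an example of these genes. The capitals mark CCAAT on either strand, the letters bound by NF-Y, a factor known to work beside the sterol-controlled SREBP proteins. They stand 176, 122 and 51 bases before the start.
FDPS promoter: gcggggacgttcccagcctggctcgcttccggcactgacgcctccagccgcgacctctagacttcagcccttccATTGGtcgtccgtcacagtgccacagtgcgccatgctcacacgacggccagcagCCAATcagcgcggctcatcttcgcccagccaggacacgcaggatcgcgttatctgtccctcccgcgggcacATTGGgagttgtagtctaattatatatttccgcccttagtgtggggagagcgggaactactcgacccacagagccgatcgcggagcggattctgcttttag
CCAAT was found in at least 1 promoter of 14 of the 17 cholesterol genes with a promoter and of 44.3% of the tested genes. Counted by single promoter it was found in 34.6%, a share beside which genes with several promoters are favoured. The letters TCACNCCAC, a form of the SREBP site, were found in none of the 17 and in 1.13% of all promoters.

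Genes that handle the fatty acids themselves were near the median of all genes. Of the 25 lipid droplet and triglyceride genes 12 were tested, with a median of 0.11. Of these 3 were apart upward and 1 downward, beside 22.5% and 12.5% of all genes. PLIN2, the main coat protein of lipid droplets and a common readout of fatty acid loading, was at 65.7 and 34.1 CPM in the controls and at 61.8 and 82.0 CPM with FFA. The groups overlapped (log2 change 0.58, adjusted p = 0.713). PLIN3, another coat protein, was at 30.1 and 35.2 CPM and then at 54.4 and 46.6 CPM (log2 change 0.61, adjusted p = 0.730), with the groups apart. CIDEB, which works in lipid droplets and lipoprotein loading, was at 24.6 and 24.7 CPM and then at 34.6 and 41.8 CPM (log2 change 0.61, adjusted p = 0.754). PLIN4 and PLIN5 were under the filter.

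Fatty acid oxidation had 18 of 30 genes tested, with a median of 0.18. Of these 5 were apart upward and 1 downward, beside 22.5% and 12.5% of all genes. CPT1A, which admits fatty acids to the mitochondrion, was at 32.8 and 29.4 CPM without FFA and at 37.1 and 37.0 CPM with FFA (log2 change 0.25, adjusted p = 0.963). DECR1, an auxiliary enzyme for unsaturated fatty acids, was at 30.1 and 17.6 CPM and then at 39.6 and 37.0 CPM (log2 change 0.70, adjusted p = 0.675). Among 12 tested targets of the PPAR factors, which sense fatty acids, the median was 0.08. The 3 apart upward were a share near the 22.5% of all genes, and none was apart downward, beside 12.5%. PDK4 and ANGPTL4, the usual reporters of these factors, were below the filter, as was the fatty acid carrier CD36.

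Fatty acid synthesis gave 12 of 21 genes and a median of 0.11. Of these 4 were apart upward and 1 downward, beside 22.5% and 12.5% of all genes. SCD, the desaturase that makes oleic acid, was at 41.0 and 41.1 CPM and then at 44.5 and 46.6 CPM (log2 change 0.15, adjusted p = 0.972). FASN, fatty acid synthase, was below the filter. Of the 24 genes of uptake and lipoproteins 15 were tested, with a median of 0.11. In this list 2 were apart upward and 4 downward, beside 22.5% and 12.5% of all genes. FABP1, the fatty acid binding protein of liver and gut, was at 846 and 801 CPM without FFA and on both sides of these values with FFA, at 1083 and 699 CPM. APOA1, the main protein of high-density lipoprotein, was at 3125 and 2817 CPM and then at 3403 and 2997 CPM (log2 change 0.11). APOC3 was at 764 and 565 CPM and then at 1051 and 646 CPM, and APOE at 159 and 155 CPM and then at 114 and 125 CPM. APOB, the scaffold of chylomicrons, was below the filter.

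**Figure D3:**
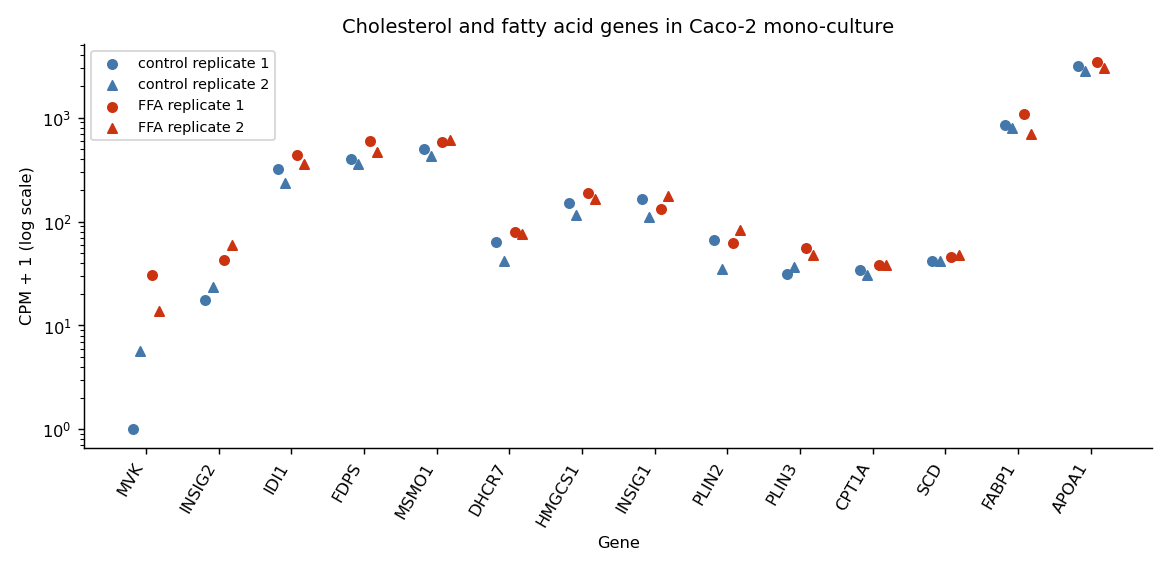
Level of 14 cholesterol and fatty acid genes in each Caco-2 mono-culture library, as CPM + 1 on a log scale, with control libraries in blue and FFA libraries in red. FFA lies above control without overlap in MVK, INSIG2, IDI1, FDPS, MSMO1, DHCR7, HMGCS1, PLIN3, CPT1A and SCD. PLIN2, INSIG1, FABP1 and APOA1 overlap, and none of the 14 passed.

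Genes of cytosolic translation mostly had values below 0. All 79 cytosolic ribosomal protein genes were tested and none passed. Of these 70 lay below 0, beside 2178 of all 5184 genes. In 35 both FFA libraries were below both controls, beside 12.5% of all genes, and in 2 above, beside 22.5%. At an unadjusted p under 0.05 there were 8, all lower, beside 1.93% of all genes, and the median was -0.07. RPL13, a protein of the large subunit, was at 5008 and 4634 CPM in the controls and at 3445 and 3963 CPM with FFA (log2 change -0.38, adjusted p = 0.0851). Its pseudogene RPL13P12 was at 813 and 964 CPM and then at 544 and 702 CPM (log2 change -0.52, adjusted p = 0.227), and reads of the pair may have been split between them. RPLP0, of the ribosomal stalk, was at 5936 and 5406 CPM and then at 4881 and 4986 CPM (log2 change -0.20). The summed level of the list was 304141 and 320364 CPM without FFA and 292044 and 293067 CPM with FFA. These values are shares of a library, in which mitochondrial RNA took 2.76% and 2.73% without FFA and 3.97% and 3.66% with FFA. The part of this in the lower values was not tested. Translation factors, 34 of 36 tested, had a median of -0.06, with 4 apart upward and 7 downward, beside 22.5% and 12.5% of all genes.

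Stress responses showed no member that passed. Of the chaperones and disulfide isomerases of the endoplasmic reticulum 18 of 21 were tested, with a median of -0.16. None was apart upward and 4 were apart downward, beside 22.5% and 12.5% of all genes. HSPA5, the main chaperone there, was at 350.3 and 291 CPM without FFA and at 252 and 289 CPM with FFA (log2 change -0.24, adjusted p = 0.836). The integrated stress response, which saturated fatty acids can start, had 21 of 30 genes tested. There 3 were apart upward and 5 downward, beside 22.5% and 12.5% of all genes. The median of this response was -0.02. ATF4, its main transcription factor, was at 342 and 368 CPM and then at 406 and 418 CPM (log2 change 0.21, adjusted p = 0.836). DDIT3, a target linked to cell death, was at 359 and 308 CPM and then at 289 and 382 CPM, and the groups overlapped. The targets TRIB3 and GDF15 had log2 changes of 0.80 and -1.09, with adjusted p of 0.787 and 0.576. PCK2, a mitochondrial enzyme that ATF4 controls, had 10 and 17 reads in the controls and 3 and 6 with FFA (log2 change -1.37, adjusted p = 0.384). Its FFA mean was 8.53 CPM, so it passed the filter only through the controls, and it is included in the counts above.

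Cytosolic heat shock genes, 30 of 33 tested, had a median of 0.05. Of these 4 were apart upward and 3 downward, beside 22.5% and 12.5% of all genes. Of the metal ion response 13 of 25 genes were tested, with a median of 0.09. There 3 were apart upward and 3 downward, beside 22.5% and 12.5% of all genes. MT2A, a metallothionein that binds zinc and copper, was at 169.7 and 159.8 CPM and then at 146 and 125 CPM (log2 change -0.28, adjusted p = 0.837), and MT1X, another, had a log2 change of -0.14. On the iron side SLC40A1, the exporter ferroportin, was at 19.2 and 24.7 CPM and then at 51.9 and 37.0 CPM (log2 change 0.98, adjusted p = 0.477). TFRC, the receptor that brings iron in, was at 90.3 and 56.4 CPM and then at 34.6 and 54.6 CPM (log2 change -0.70, adjusted p = 0.675). The antioxidant list (27 of 32 tested) had a median of 0.07, the proteasome (40 of 41) -0.03 and transport through the endoplasmic reticulum (53 of 59) 0.03. The lists of ER-associated degradation, aminoacyl-tRNA synthetases, apoptosis, immediate-early factors, keratins with actins and tubulins, and snoRNA host genes had medians between -0.10 and 0.17, and none of their members passed.

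Of the genes of mitosis and the spindle 45 of 52 were tested, with a median of 0.13. Among them 13 were apart upward, a share near the 22.5% of all genes, and 2 downward, beside 12.5%. The 4 with an unadjusted p under 0.05 were all higher, beside 5.38% of all genes, and none passed. HMMR, a spindle protein, was at 24.6 and 17.6 CPM in the controls and at 32.1 and 41.8 CPM with FFA, and PLK1, a mitotic kinase, at 13.7 and 11.8 CPM and then at 29.7 and 22.5 CPM. BIRC5, survivin, was at 38.3 and 48.2 CPM and then at 59.4 and 75.5 CPM. NUSAP1, which binds spindle microtubules, was at 82.1 and 67.0 CPM and then at 121 and 103 CPM. Their adjusted p lay between 0.623 and 0.678. MKI67, the usual proliferation marker, was below the filter. Genes of DNA replication, 27 of 46 tested, had a median of 0.11. Of these 4 were apart upward and 3 downward, beside 22.5% and 12.5% of all genes. Counted upward was FEN1, with a mean of 5.68 CPM in the controls and 14.6 CPM with FFA. It passed the filter only through the FFA libraries.

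Glycolysis had the lowest median of the gene lists, -0.17, over 17 of 28 genes, with 13 below 0. Of the 17, 2 were apart upward and 4 downward, beside 22.5% and 12.5% of all genes. ENO1, enolase, was at 413 and 298 CPM without FFA and at 225 and 281 CPM with FFA (log2 change -0.48, adjusted p = 0.633). PFKP, a phosphofructokinase, had 8 and 25 reads in the controls and 1 and 10 with FFA (log2 change -1.77, adjusted p = 0.566), so that its lowest library was under the floor. Its FFA mean was 9.28 CPM, so it passed the filter only through the controls, and it is included in the counts above.

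Of the 46 genes of intestinal identity and the brush border only 13 passed the filter, with a median of 0.15. Of these 2 were apart upward and 1 downward, beside 22.5% and 12.5% of all genes. EZR, ezrin, which ties the microvillus membrane to actin, was at 197 and 157 CPM in the controls and at 289 and 262 CPM with FFA (log2 change 0.64, adjusted p = 0.285). LGALS3, a galectin, was at 733 and 624 CPM and then at 499.5 and 540.0 CPM (log2 change -0.38, adjusted p = 0.557). VIL1, villin, and CDH17, an intestinal cadherin, had log2 changes of 0.30 and 0.22 with overlapping groups. Junction genes (16 of 30 tested) had a median of 0.23, with 3 apart upward and 2 downward, beside 22.5% and 12.5% of all genes. Among them CLDN1, a claudin of tight junctions, had 1 and 18 reads without FFA and 11 and 21 with FFA, and its controls were far apart.

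**Figure D4:**
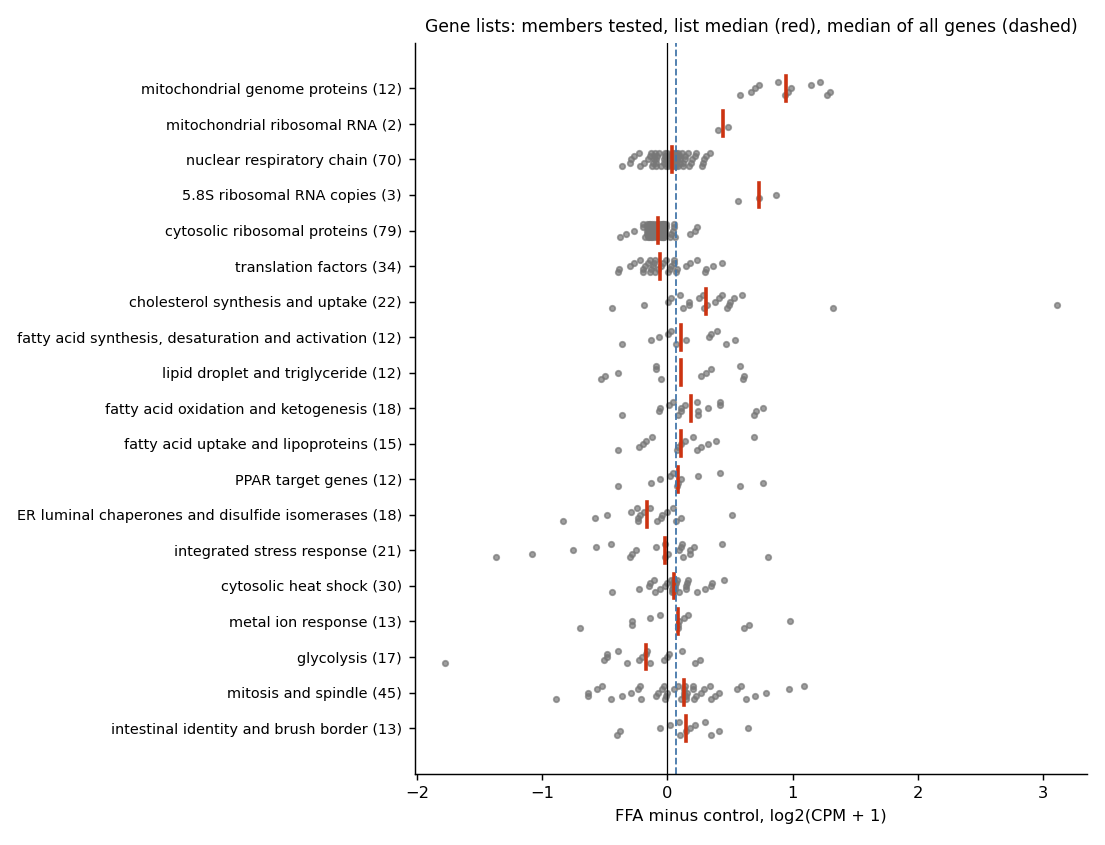
Change with FFA of the tested members of 19 gene lists, as FFA minus control in log2(CPM + 1), with 1 grey point per gene, a red bar at the list's median and a dashed line at the median of all genes (0.07). The mitochondrial lists and the 5.8S copies lie wholly above 0, and the nuclear respiratory chain (median 0.03) and the cytosolic ribosomal proteins (median -0.07) lie close around it.

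Among the higher genes with the smallest p outside the lists were the following, none of which passed. CASP8AP2, which takes part in apoptosis and histone gene expression, had 0 and 4 reads in the controls and 8 and 13 with FFA (adjusted p = 0.106). NKTR, a cyclophilin-type protein, had 0 and 7 reads and then 10 and 12 (adjusted p = 0.106). In both genes the control mean lay under 10 CPM, so they passed the filter only through the FFA libraries. With a library at 0 reads the fitted size depends on the pseudocount, as it does for MVK. DEFB1, an epithelial antimicrobial peptide, was at 16.4 and 14.1 CPM and then at 59.4 and 32.1 CPM (log2 change 1.46, adjusted p = 0.106). TSC22D1, a TGF-beta-responsive factor, was at 43.8 and 56.4 CPM and then at 106 and 96.4 CPM (log2 change 1.01, adjusted p = 0.123). KCNQ1OT1, an imprinted antisense RNA, was at 21.9 and 11.8 CPM and then at 47.0 and 38.6 CPM (log2 change 1.35, adjusted p = 0.127). As strand was not stated, its reads cannot be told apart from those of KCNQ1, its sense partner.

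Among the lower genes with the smallest p were the following, none of which passed. EEF1AKMT4, a lysine methyltransferase acting on a translation factor, had 14 and 22 reads in the controls and 4 and 4 with FFA (log2 change -1.85, adjusted p = 0.106), and an overlapping readthrough gene shares its reads. RN7SL2, an RNA of the signal recognition particle with near-identical copies, had 15 and 17 reads and then 5 and 3 (log2 change -1.75, adjusted p = 0.227). EBPL, a relative of a sterol isomerase, was at 38.3 and 52.9 CPM and then at 12.4 and 19.3 CPM (log2 change -1.48, adjusted p = 0.306). EXOSC5, a subunit of the RNA exosome, had 6 and 26 reads and then 3 and 3 (log2 change -1.74, adjusted p = 0.329). BUD23, a ribosomal RNA methyltransferase, was at 115 and 110.5 CPM and then at 44.5 and 90.0 CPM (log2 change -0.82, adjusted p = 0.406). In each of them, picked by p in these same libraries, both FFA libraries were below both controls. For EEF1AKMT4, RN7SL2 and EXOSC5 the FFA means were 8.17, 8.59 and 6.12 CPM, so they passed the filter only through the controls. EXOSC5 stood at the floor of 3 reads in both FFA libraries.

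The same change was then set against that in Caco-2 cells in co-culture with HepG2, where the control and FFA libraries are others. The difference between the changes passed in 7 of 5184 genes (0.135%) and was positive in all 7, that is, the change was higher in mono-culture. At an unadjusted p under 0.05 it was 355 genes. With edgeR 2 of the 7 passed, DKK1 and DNAJB1, and with DESeq2 1, DKK1. DKK1 had the smallest adjusted p. In co-culture it was at 466 and 398 CPM without FFA and at 247 and 230.4 CPM with FFA, so it was lower in both FFA libraries there and higher in both in mono-culture. The difference was 1.85 ± 0.24 (SE, adjusted p = 0.000105).

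MT-RNR2 was at 27892 and 24668 CPM in co-culture without FFA and at 23232 and 24174 CPM with FFA, and the difference was 0.55 ± 0.08 (SE, adjusted p = 0.000581). MT-ND4 was at 1141 and 1065 CPM and then at 1075 and 1106 CPM in co-culture, where its groups overlapped, and the difference was 0.95 ± 0.17 (SE, adjusted p = 0.00449). These were the 2 of 14 mitochondrial genes that passed, beside 0.135% of all genes, and all 14 differences were positive. The share of positive differences over all genes was not counted. The co-culture controls were already higher: in all 14 genes both mono-culture controls were below both co-culture controls. How many of all genes had this order was not counted, so it is not shown to be particular to these 14. In 4 of the 14 the mean of the mono-culture FFA libraries was above both co-culture controls. The mitochondrial share of reads was 3.81% and 3.41% in the co-culture controls and 3.51% and 3.41% in the co-culture FFA libraries. So the mono-culture controls, at 2.76% and 2.73%, had the lowest shares of the 8 Caco-2 libraries. In co-culture the protein genes alone held 0.812% and 0.720% without FFA and 0.965% and 0.782% with FFA, and the groups overlapped. The median change of these protein genes in co-culture was 0.18, against -0.04 over all genes.

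Of the others that passed, DNAJB1, HSPA1A and MSMO1 had the larger change in co-culture. DNAJB1, a heat shock co-chaperone, was at 550.1 and 416 CPM and then at 556 and 574 CPM in mono-culture, and at 311 and 427 CPM and then at 42.1 and 137 CPM in co-culture. The difference was 2.49 ± 0.40 (SE, adjusted p = 0.00124). HSPA1A, an inducible chaperone with a near-identical copy in HSPA1B, had a log2 change of 0.10 in mono-culture and of -1.70 in co-culture, and the difference was 1.79 ± 0.38 (SE, adjusted p = 0.0365). In both of these the co-culture FFA libraries were below the other Caco-2 libraries. MSMO1, of cholesterol synthesis, had a log2 change of 0.38 in mono-culture and -0.88 in co-culture, with a difference of 1.26 ± 0.26 (SE, adjusted p = 0.0263). The cholesterol list as a whole had a median of 0.30 in mono-culture and -0.37 in co-culture.

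**Figure D5:**
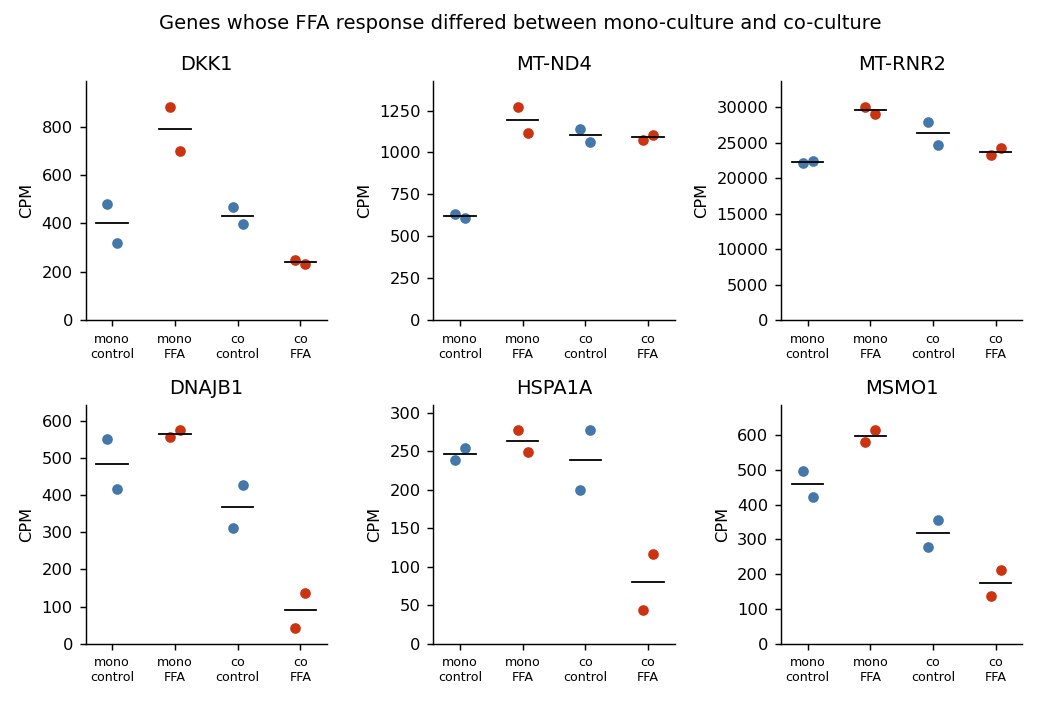
Levels in CPM of 6 of the genes whose change with FFA differed between mono-culture and co-culture, in the 8 Caco-2 libraries, with controls in blue, FFA in red and a bar at each group's mean. DKK1 was higher with FFA in mono-culture and lower with FFA in co-culture, MT-ND4 and MT-RNR2 were lowest in the mono-culture controls, and DNAJB1 and HSPA1A were lowest in co-culture with FFA.

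Against HepG2 in mono-culture, no gene passed for a difference between the lines (0%), 411 had an unadjusted p under 0.05, and edgeR on the recovered reads called 1, MT-CYB. Without HepG2 FFA replicate 1 there were 79 and without HepG2 FFA replicate 2 there was 1. In HepG2 the mitochondrial share was 10.6% and 9.995% without FFA and 10.3% and 9.10% with FFA. The protein genes alone held 2.41% and 2.58% without FFA and 2.96% and 2.85% with FFA, both FFA libraries above both controls. The changes of the 14 genes in HepG2 lay between -0.29 and 0.54, with 10 above 0 and none passing. The median change of the cholesterol list was 0.63 in HepG2 against 0.30 in Caco-2, and that of the nuclear respiratory chain -0.14 against 0.03. These medians were not tested against each other.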

How the data were processed

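The authors deposited values named TPM. Within a library they were whole multiples of 1 step (99.5% to 99.8% of values within 0.05 of a step in these 4 libraries, 100% allowing for rounding), so the deposited values are CPM that the authors made by dividing each gene's reads by the library total, and reads were recovered from the step. Per the submitters' processing notes, reads were mapped with minimap2 2.22 to GRCh38. For mRNA-seq the study describes removal of reads that match the mitochondrial genome, mapping with STAR to Ensembl genes and quantification with RSEM. It does not say that these steps were used on the Nanopore reads, and mitochondrial reads are present here, so how these reads were counted is not known. Gene positions came from GENCODE 44 (60295 of 60623 genes matched), promoters from RefSeq.

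The genes that averaged 10 CPM or more over the 4 mono-culture libraries were tested with limma 3.58.1 (R 4.3.3) on log2(CPM + 1), with a trended prior variance (25.9 prior and 4 residual degrees of freedom), over the 8 Caco-2 libraries in 4 groups, and Benjamini-Hochberg adjustment over the 5184 genes (threshold 0.05, two-sided). The difference between cultures came from the same fit, that between lines from the 8 mono-culture libraries of both. "Apart" means that the 2 FFA libraries were both above or both below the 2 controls. Named were the genes that passed, the 10 higher and 10 lower with the smallest p, list members, preset genes and the 5 leading genes of each difference, of which a selection is printed; 1 gene that passed for the culture difference and some list members are not reported here. Members and lists were chosen with earlier results of these data known. Alternatives included edgeR 4.0.16 and DESeq2 1.42.0 on the recovered reads. The tests were tested on simulated data.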

Additional observations from a re-analysis of the deposited data

Results flagged for a closer look

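In the following 6 genes the change with FFA differed between Caco-2 mono-culture and co-culture by a test of the difference itself (limma, Benjamini-Hochberg over 5184 genes). The log2 change was higher in mono-culture by 1.85 for DKK1, by 0.55 for MT-RNR2, by 2.49 for DNAJB1, by 0.95 for MT-ND4, by 1.26 for MSMO1 and by 1.79 for HSPA1A. For DKK1 the direction was opposite in the 2 cultures in every library. For MT-ND4 and MT-RNR2 the mono-culture controls stood below the other Caco-2 libraries. For DNAJB1, HSPA1A and MSMO1 the co-culture FFA libraries stood below the other Caco-2 libraries. The causes were not tested.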

How the results depend on the processing

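The alternatives moved the 10 calls of the mono-culture comparison and the 7 of the culture difference, in that order, as follows. They became 1 and 0 when genes averaging 1 CPM or more in any Caco-2 group were kept, 6 and 4 without a filter, 6 and 2 with median-ratio scaling, 5 and 1 with DESeq2, and 0 and 0 with a constant prior variance, where 328 and 329 genes had an unadjusted p under 0.05. With an ordinary test of each contrast, no adjustment, p under 0.05 and changes of 1.2-fold or more, which changes several choices together, they were 280 and 307. These limits follow the study, but its ANOVA over all conditions was not run. Without the mitochondrial genome 1 gene passed in mono-culture, DKK1, and after thinning to 353871 reads 5 passed. The culture difference gave 3 with quantile normalization, 2 with edgeR, 11 with a pseudocount of 5 and 11 at a mean of at least 50 CPM. Under quantile normalization MT-RNR2 is the top gene of every library, so its change is 0 by construction. The difference between lines gave 1 with edgeR.

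Leaving out 1 library gave between 3 (without mono-culture FFA replicate 1) and 27 (without mono-culture FFA replicate 2) in mono-culture. For the culture difference it gave between 4 (without co-culture control replicate 2 or co-culture FFA replicate 1) and 11 (without co-culture FFA replicate 2), and for the difference between lines between 0 and 79. A group left with 1 library was assumed to vary like the others. With the replicate block 16 genes passed in mono-culture, 14 higher and 2 lower (RPL13 and RPL13P12), and 22 for the culture difference. Nothing says that same-numbered libraries share more than the number. As a description, their deviations correlated at r = 0.064 over 5184 genes and at r = 0.156 over the 1129 genes averaging 100 CPM or more.

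Of the named genes that did not pass, DDIT3 reversed with quantile normalization (-0.033), edgeR (-0.039), median-ratio scaling (-0.0710), DESeq2 (-0.042) and thinning (-0.017), CDH17 with thinning (-0.060) and HSPA1A with edgeR (-0.00817). Leaving out 1 library also reversed APOC3 (-0.024 to 0.68), CDH17 (-0.087 to 0.53), DDIT3 (-0.20 to 0.20), FABP1 (-0.24 to 0.40), INSIG1 (-0.11 to 0.46) and VIL1 (-0.014 to 0.62). With 2 libraries a group and between 365396 and 850986 reads each, changes of genes near 10 CPM rest on a few reads.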
